A study of Mus musculus with 12 samples.

Results

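Mitosis and cytokinesis are carried out by proteins whose mRNAs are made late in the cell cycle and are scarce in cells that have stopped dividing. The genes described here are a list of 39 such genes, from the cyclin B and Cdk1 kinase to the ring and midbody proteins that separate the daughter cells, taken from a list of symbols. All 39 were found among the 21959 genes of the table, and all 39 passed the filter for testing (at least 1 TPM in all 3 libraries of at least 1 group), which 11996 genes passed. TPM (transcripts in 1000000 of a library) is a share of a library's transcripts corrected for gene length, so levels of different genes can be set side by side. RNA came from C8-D1A, an established line of mouse astrocytes, and every library is of that 1 line. The design compares 3 conditions that go with extracellular acidification, each applied for 24 h, with untreated cells: an atmosphere of 15% CO2, 20 mM lactic acid, and medium with 0.2 g/L NaHCO3, called low-bicarbonate medium here. Controls were kept under 5% CO2. Each group has 3 libraries. The pH reached is not given, so the conditions cannot be matched by pH. The labels do not say whether the 3 libraries of a group were separate cultures, and p-values measure the spread between these libraries, which may be technical.

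A dividing cell condenses its chromosomes, attaches them to spindle fibres at protein plates called kinetochores, and holds anaphase back through the spindle checkpoint until every chromosome is attached. The anaphase-promoting complex then marks cyclin B and the guardian of separase for destruction, and a contractile ring cuts the cell apart. Most of these genes are switched together. In resting cells the DREAM complex represses them, and in dividing cells B-Myb and FoxM1 activate them on the same MuvB core, through a promoter element called CHR, often beside CCAAT boxes bound by NF-Y. Astrocytes in the healthy adult brain rarely divide, while astrocyte lines in culture do.

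Most of the promoters held the 2 elements named above. RefSeq promoters (build GRCm38.p6, 250 bases before to 50 after the start) were found for 34 of the 39 genes. A CHR (TTTGAA or TTCGAA, either strand) lay in 28 of the 34, or 82.4%, against 19.2% of all 32851 promoters. A CCAAT box (CCAAT, either strand) lay in 27, or 79.4%, against 37.4%, and both elements in 25, or 73.5%, against 7.52%. An E2F-type site (TTTCCCGC or TTTGGCGC, either strand) lay in none of the 34 and in 1.56% of all promoters. A match describes letters in this window, not a bound site or a cause. Shown are 5 genes that hold a CHR, those of a fixed panel first (Mki67, Cdk1, Plk1 and Cdc20) and then Top2a by highest mean TPM. Cenpa was added after its values were seen because it moved most. CHR and CCAAT letters are in capitals, in the gene's own direction, which puts a site on the other strand as TTCAAA or ATTGG. The windows are Mki67 chr7:135716330-135716629 (reverse strand), Top2a chr11:99024140-99024439 (reverse strand), Cdk1 chr10:69352863-69353162 (reverse strand), Plk1 chr7:122159185-122159484 (forward strand), Cdc20 chr4:118437294-118437593 (reverse strand) and Cenpa chr5:30666636-30666935 (forward strand).
Mki67: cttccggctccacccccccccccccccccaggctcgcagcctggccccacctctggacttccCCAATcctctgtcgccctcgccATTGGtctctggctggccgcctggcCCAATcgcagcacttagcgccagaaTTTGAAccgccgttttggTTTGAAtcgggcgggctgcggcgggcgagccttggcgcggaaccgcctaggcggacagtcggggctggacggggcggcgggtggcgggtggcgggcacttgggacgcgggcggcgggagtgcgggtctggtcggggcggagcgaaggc
Top2a: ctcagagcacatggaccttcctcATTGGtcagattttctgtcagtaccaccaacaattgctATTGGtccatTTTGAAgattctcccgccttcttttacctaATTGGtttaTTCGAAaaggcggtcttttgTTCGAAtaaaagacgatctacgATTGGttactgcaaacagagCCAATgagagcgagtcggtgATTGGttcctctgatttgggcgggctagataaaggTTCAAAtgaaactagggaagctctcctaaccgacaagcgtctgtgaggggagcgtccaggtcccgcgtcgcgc
Cdk1: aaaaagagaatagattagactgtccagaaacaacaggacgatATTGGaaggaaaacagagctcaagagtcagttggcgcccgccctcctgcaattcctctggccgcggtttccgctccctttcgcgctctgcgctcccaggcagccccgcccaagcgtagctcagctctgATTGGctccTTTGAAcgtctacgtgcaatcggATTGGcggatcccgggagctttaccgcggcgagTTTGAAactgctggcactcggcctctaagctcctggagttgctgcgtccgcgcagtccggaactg
Plk1: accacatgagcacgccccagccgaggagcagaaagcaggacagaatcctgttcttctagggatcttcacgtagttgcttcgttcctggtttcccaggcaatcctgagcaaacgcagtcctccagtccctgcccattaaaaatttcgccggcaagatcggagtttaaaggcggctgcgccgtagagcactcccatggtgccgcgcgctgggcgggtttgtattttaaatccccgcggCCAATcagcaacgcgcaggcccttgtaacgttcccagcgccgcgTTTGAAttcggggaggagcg
Cdc20: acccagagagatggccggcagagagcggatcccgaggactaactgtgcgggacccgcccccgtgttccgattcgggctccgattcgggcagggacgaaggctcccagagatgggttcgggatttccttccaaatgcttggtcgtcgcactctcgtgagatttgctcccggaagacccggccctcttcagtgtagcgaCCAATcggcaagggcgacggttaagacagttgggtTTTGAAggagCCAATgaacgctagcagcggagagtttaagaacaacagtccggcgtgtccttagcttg
Cenpa: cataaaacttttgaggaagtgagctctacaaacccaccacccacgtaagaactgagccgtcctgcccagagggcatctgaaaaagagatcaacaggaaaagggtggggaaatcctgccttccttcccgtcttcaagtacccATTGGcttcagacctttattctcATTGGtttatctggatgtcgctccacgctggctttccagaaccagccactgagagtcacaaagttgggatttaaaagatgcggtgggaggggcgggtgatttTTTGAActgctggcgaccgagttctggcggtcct

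Control 1 stood apart from the other 11 libraries. Results below are given with it (12 libraries) and without it (11 libraries), or, for a number of single genes, only without it. It was the lowest of the 12 libraries for all 39 genes, which held for 21.6% of the genes tested. Its level was a median 0.523 of the mean of controls 2 and 3, from 0.465 for Bub1 to 0.604 for Incenp, while the median over all genes tested was 0.960. Markers of brain tissue were high in it. All 6 neuron markers peaked there (summed 1791 TPM against 0.175 to 0.772 TPM in the others), as did 5 of 5 oligodendrocyte (828 against 30.8 to 58.3 TPM), 5 of 5 microglia (120.5 against 3.86 to 10.9 TPM), 3 of 3 endothelial (55.9 against 14.7 to 17.9 TPM) and 2 of 2 red cell markers (319 against 0.221 to 2.74 TPM). P2ry12 and C1qa of the microglia list were at 0 in the other 11 libraries. The part of these transcripts in the low mitotic levels of control 1 was not tested. Of the 8 astrocyte markers, 6 were highest in control 1, though the sum of the 8 was not (1738 against 1410 to 2748 TPM). Gfap, Aqp4, Slc1a2, Slc1a3 and Aldh1l1 were at most 1.19 TPM in the other 11 libraries, whereas Vim (1327 to 2678 TPM), Sox9 and S100b were present. So 5 of the 8 markers were at or near 0 in the line.

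Mitotic transcripts were higher in low-bicarbonate medium than in any other group. The 39 genes together made up 8968, 9272 and 8443 TPM there, against 3112, 5968 and 5904 TPM in controls 1 to 3. The sums were 5478, 5411 and 5707 TPM under 15% CO2 and 5596, 5586 and 5490 TPM with lactic acid. The 3 low-bicarbonate libraries were above the other 9, and the CO2 and lactic acid libraries lay below controls 2 and 3 and above control 1. Group means were 8894 ± 419.5 TPM (SD, n = 3) in low-bicarbonate medium, 4995 ± 1631 TPM in the 3 controls, 5532 ± 155 TPM under CO2 and 5557 ± 58.8 TPM with lactic acid. In bulk RNA, more dividing cells and more mitotic RNA per cell cannot be told apart.

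**Figure D1:**
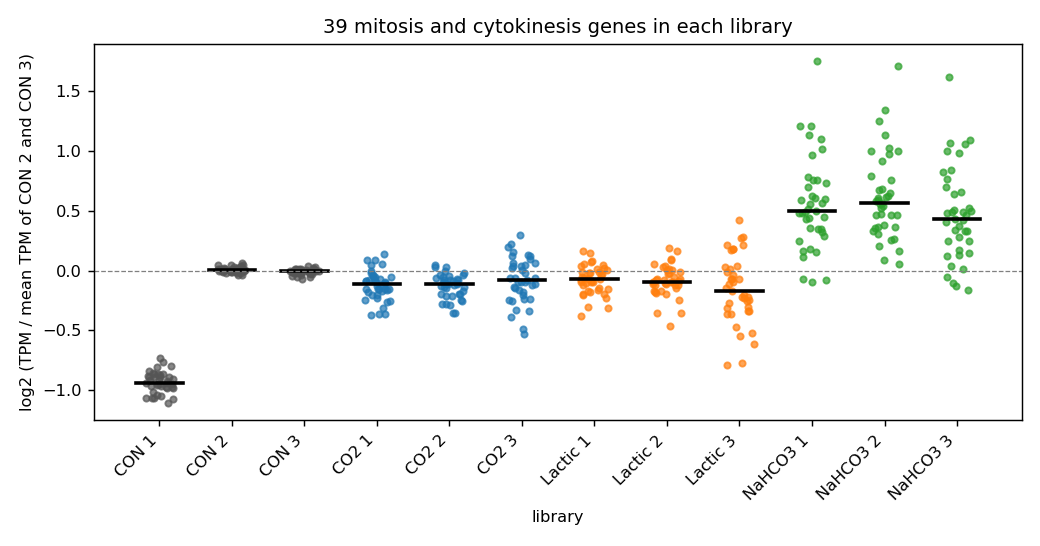
Log2 ratio of TPM to the mean of controls (CON) 2 and 3, for the 39 genes (points) in each of the 12 libraries (x axis), with the median as a bar and the groups in colours. Control 1 lies low as a whole, at a median of 0.523 of controls 2 and 3, and the 3 low-bicarbonate (NaHCO3) libraries lie high, at medians of 1.42, 1.48 and 1.35 on the linear scale.

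Against control, 32 of the 39 genes rose in low-bicarbonate medium and none fell (limma on log2(TPM + 1), Benjamini-Hochberg adjusted over all genes tested, called at 0.05). Over all genes tested, 20.5% rose and 35.8% fell. Without control 1, 31 rose, all of them among the 32, and none fell, beside 23.1% and 41.5% of all genes. The median log2 change of the 39 genes was 0.79 with 12 libraries and 0.50 without control 1, where the median over all genes tested was −0.19 and −0.18. All 3 low-bicarbonate libraries were above all 3 controls for 34 genes, and for 24.3% of the genes tested. Ccnb1, Plk1, Cenpe, Kif2c and Kif20a were the 5 that overlapped. Median-of-ratios scaling brought the median of all genes to −0.006, and 36 of the 39 genes then rose, beside 29.8% of all genes. Quantile normalization, with a median of 0.004, left 30 that rose, beside 25.5% of all genes.

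**Figure D2:**
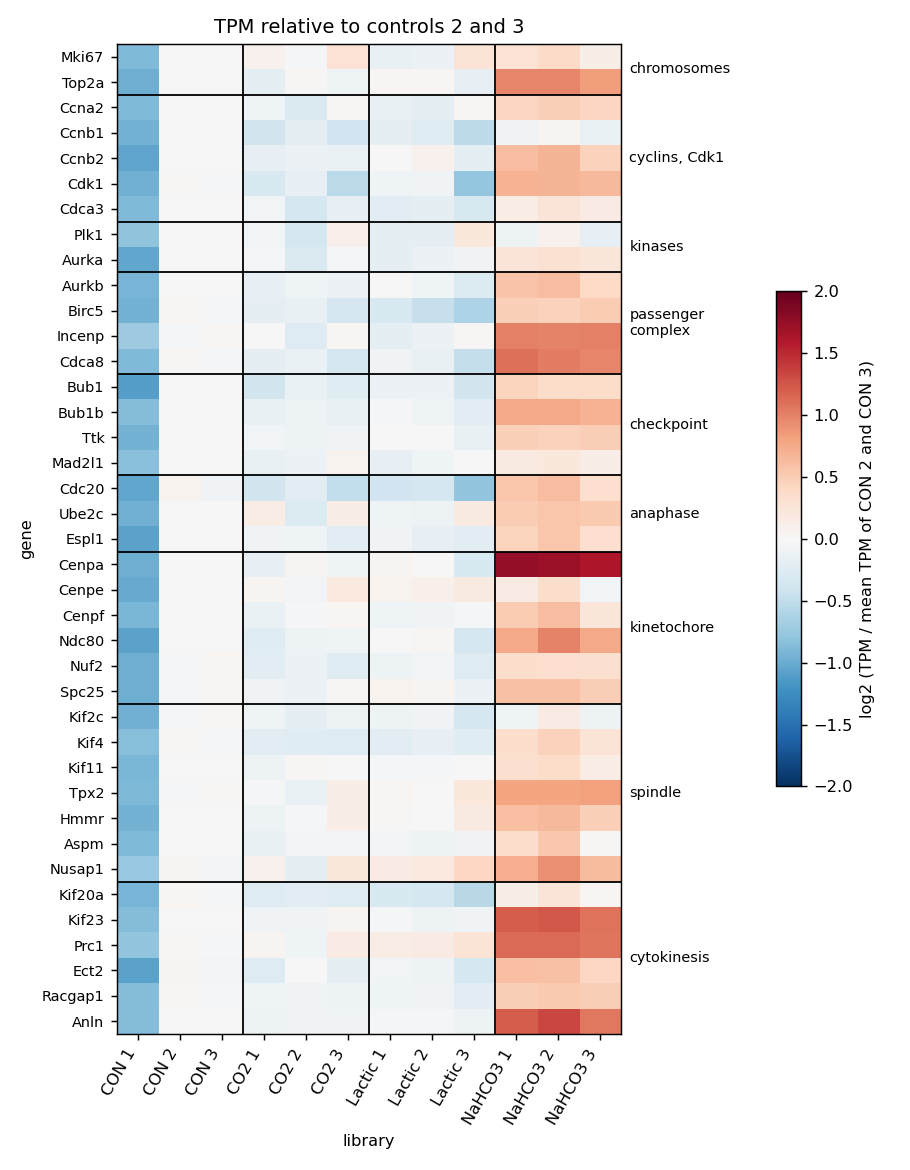
Log2 ratio of TPM in each library (columns) to the mean of controls 2 and 3, for the 39 genes (rows) grouped by role. The control 1 column is low for every gene, and the 3 low-bicarbonate columns are high for most, with Cenpa the highest.

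The largest change was that of Cenpa (ENSMUSG00000029177), the histone H3 variant that marks where a kinetochore is built. Its levels were 52.7, 103 and 105 TPM in controls 1 to 3, 93.4, 108 and 97.7 TPM under 15% CO2, 108, 103 and 84.3 TPM with lactic acid and 351, 340.1 and 319.9 TPM in low-bicarbonate medium. The lowest low-bicarbonate library, at 319.9 TPM, was far above the highest library of any other group, lactic acid 1. Cenpa rose (log2 change 2.01 ± 0.22, adjusted p = 2.76e-05 with 12 libraries, and 1.68 ± 0.10, adjusted p = 2.69e-07 without control 1). Here and below, ± after a log2 change is its standard error from limma. The outer kinetochore genes rose as well, with Ndc80 at a log2 change of 0.83, Nuf2 at 0.33, Spc25 at 0.55 and Cenpf, a large kinetochore and centromere protein, at 0.46 without control 1. Cenpe, the motor that carries chromosomes to the spindle equator, was the exception among the 6 kinetochore genes. It stood at 80.5, 164 and 161 TPM in controls 1 to 3, 169, 157 and 187 TPM under 15% CO2, 170.3, 174 and 184 TPM with lactic acid and 182, 207 and 157 TPM in low-bicarbonate medium. Controls 2 and 3 and every CO2 and lactic acid library lay within the low-bicarbonate range, and its log2 change was 0.49 ± 0.23 (adjusted p = 0.0863) with 12 libraries and 0.16 ± 0.11 (adjusted p = 0.231) without control 1.

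Cytokinesis genes followed, with 5 of 6 risen in both fits. Anln (ENSMUSG00000036777), the anillin scaffold of the contractile ring, stood at 105, 190.0 and 191 TPM in controls 1 to 3, 177, 182 and 182 TPM under 15% CO2, 188, 188 and 178 TPM with lactic acid and 441, 481 and 396 TPM in low-bicarbonate medium. Its low-bicarbonate libraries were all above every other library, and the other groups lay close together apart from control 1. Anln rose (log2 change 1.48 ± 0.19, adjusted p = 8.51e-05 with 12 libraries, and 1.20 ± 0.08, adjusted p = 4.85e-07 without control 1). Kif23, the motor of centralspindlin, and Racgap1, its partner, rose by 1.17 and 0.50 on the log2 scale without control 1. Prc1, which bundles the midzone fibres, rose by 1.10, and Ect2, the exchange factor that turns on RhoA at the furrow, by 0.54. Kif20a, a midzone motor, was 73.9, 145 and 136 TPM in controls 1 to 3, 118, 121 and 119 TPM under 15% CO2, 113, 109.9 and 95.9 TPM with lactic acid and 152, 167 and 144 TPM in low-bicarbonate medium. Its lowest low-bicarbonate library lay below control 2, and it did not pass (log2 change 0.44 ± 0.20, adjusted p = 0.0839 with 12 libraries, and 0.14 ± 0.086, adjusted p = 0.185 without control 1). The exons of Prc1 overlap those of Rccd1 and the exons of Kif20a those of Cdc23 on the opposite strand, and use of strand is not given in the sources used here.

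All 4 genes of the chromosomal passenger complex, which corrects faulty attachments and later sits at the midzone, rose in both fits. Incenp (ENSMUSG00000024660), its scaffold, was 121, 198 and 203 TPM in controls 1 to 3, 199.7, 168 and 207 TPM under 15% CO2, 178, 186 and 205 TPM with lactic acid and 405, 400.5 and 401 TPM in low-bicarbonate medium. Cdca8, borealin, was 36.6, 68.9 and 66.3 TPM in controls 1 to 3, 58.9, 61.9 and 53.8 TPM under 15% CO2, 64.3, 61.3 and 48.7 TPM with lactic acid and 145, 138 and 134 TPM in low-bicarbonate medium. For both genes the low-bicarbonate libraries stood clear of every other library. Incenp rose by 1.001 ± 0.092 (adjusted p = 4.14e-06) and Cdca8 by 1.03 ± 0.11 (adjusted p = 1.11e-05) on the log2 scale without control 1. The kinase of the complex, Aurkb, stood at 47.7, 91.8 and 90.5 TPM in controls 1 to 3, 81.7, 86.3 and 83.9 TPM under 15% CO2, 91.7, 85.4 and 75.7 TPM with lactic acid and 135, 139 and 121 TPM in low-bicarbonate medium. Its low-bicarbonate libraries were all above every other library, and it rose (log2 change 0.83 ± 0.20, adjusted p = 0.00544 with 12 libraries, and 0.52 ± 0.088, adjusted p = 0.000338 without control 1). Birc5, survivin, rose by 0.48 ± 0.089 (adjusted p = 0.000679) without control 1.

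Of the chromosome genes Top2a and Mki67, the first rose in both fits and the second with 12 libraries alone. Top2a (ENSMUSG00000020914), the topoisomerase that untangles sister chromatids and the gene with the highest mean TPM of the 39, stood at 200.4, 395 and 392 TPM in controls 1 to 3, 349, 401 and 369 TPM under 15% CO2, 406, 405 and 350.0 TPM with lactic acid and 771, 773 and 706 TPM in low-bicarbonate medium. The low-bicarbonate libraries stood clear of the rest, and Top2a rose (log2 change 1.25 ± 0.22, adjusted p = 0.000617 with 12 libraries, and 0.93 ± 0.091, adjusted p = 6.35e-06 without control 1). Mki67 (ENSMUSG00000031004), which coats mitotic chromosomes and is the usual marker of dividing cells, was 191, 351 and 354 TPM in controls 1 to 3, 375, 343 and 432 TPM under 15% CO2, 318, 324 and 428 TPM with lactic acid and 431, 460.0 and 383 TPM in low-bicarbonate medium. CO2 3 and lactic acid 3 reached the range of the low-bicarbonate libraries, and the call was lost without control 1 (log2 change 0.56 ± 0.22, adjusted p = 0.0495 with 12 libraries, and 0.27 ± 0.14, adjusted p = 0.114 without control 1). With control 1 kept, it was also lost when CO2 1, 2 or 3, lactic acid 1 or 2, or any low-bicarbonate library was left out (adjusted p from 0.0586 to 0.131). The call was lost too with no filter (0.0884), under quantile normalization (0.196) and in a fit of only low-bicarbonate medium and control (0.114).

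Among the cyclin genes, Cdk1 (ENSMUSG00000019942), the kinase that starts mitosis, was 99.7, 196 and 191 TPM in controls 1 to 3, 156, 172 and 134 TPM under 15% CO2, 181, 183 and 113 TPM with lactic acid and 314, 309 and 305 TPM in low-bicarbonate medium. The low-bicarbonate libraries were the highest, and lactic acid 3 and CO2 3 the lowest apart from control 1. Cdk1 rose (log2 change 0.99 ± 0.25, adjusted p = 0.00654 with 12 libraries, and 0.67 ± 0.18, adjusted p = 0.00645 without control 1), as did Ccna2, which pairs with it before mitosis, by 0.44 and Ccnb2 by 0.58 without control 1. Ccnb1 (ENSMUSG00000041431), the main cyclin B, did not pass. It stood at 144, 279 and 279 TPM in controls 1 to 3, 217, 243 and 213 TPM under 15% CO2, 243, 235 and 194 TPM with lactic acid and 265, 289 and 255 TPM in low-bicarbonate medium. Controls 2 and 3 lay inside the low-bicarbonate range, and the log2 change without control 1 was −0.049, with a 95% interval from −0.28 to 0.18 (0.27, adjusted p = 0.307, with 12 libraries). Its transcript shares 1287 bases at 99.2% identity with the pseudogene Ccnb1-ps, so its reads may have been divided. Cdca3, a trigger of mitotic entry, was not called (0.49 and 0.20).

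Of the kinases Plk1 and Aurka, Aurka rose in both fits and Plk1 in neither. Plk1 (ENSMUSG00000030867), which acts at centrosomes, kinetochores and the furrow, was 129, 227 and 223 TPM in controls 1 to 3, 217, 176 and 241 TPM under 15% CO2, 199, 197 and 262 TPM with lactic acid and 211, 240.1 and 201 TPM in low-bicarbonate medium. The groups overlapped except for control 1, and lactic acid 3 was the highest library. Its log2 change in low-bicarbonate medium was 0.21 (adjusted p = 0.406) with 12 libraries and −0.054 without control 1, with a 95% interval from −0.38 to 0.27. Aurka, the centrosome kinase, was 85.6, 175 and 179 TPM in controls 1 to 3, 172, 145 and 175 TPM under 15% CO2, 155, 163 and 169 TPM with lactic acid and 210.3, 219 and 210.2 TPM in low-bicarbonate medium. Its low-bicarbonate libraries were above every other one, and it rose (log2 change 0.61 ± 0.22, adjusted p = 0.0373 with 12 libraries, and 0.27 ± 0.084, adjusted p = 0.0156 without control 1), but the call was lost when any 1 low-bicarbonate library was left out (adjusted p = 0.0785, 0.0880 and 0.0797) and, at 0.0508, without CO2 1 or without lactic acid 2. With control 1 kept, the call was also lost with no filter (0.0692), under quantile normalization (0.0902) and in a fit of only low-bicarbonate medium and control (0.12). Without control 1 it was lost when control 2 or control 3 was left out as well (adjusted p = 0.0884 and 0.0616) and under quantile normalization (log2 change 0.17, adjusted p = 0.227).

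Of the 4 checkpoint genes 3 rose. Bub1b, BubR1 of the mitotic checkpoint complex, stood at 82.7, 151 and 149.9 TPM in controls 1 to 3, 135, 140.4 and 137 TPM under 15% CO2, 147, 142 and 129 TPM with lactic acid and 255, 254 and 244 TPM in low-bicarbonate medium. The low-bicarbonate libraries stood clear of the others, and Bub1b rose (log2 change 1.02 ± 0.19, adjusted p = 0.000911 with 12 libraries, and 0.73 ± 0.068, adjusted p = 4.56e-06 without control 1). Bub1, which recruits the others to the kinetochore, was 85.9, 183 and 187 TPM in controls 1 to 3, 143, 168 and 157 TPM under 15% CO2, 170.2, 169.9 and 143 TPM with lactic acid and 251, 238 and 239 TPM in low-bicarbonate medium. The low-bicarbonate libraries were the highest, and Bub1 rose (log2 change 0.76 ± 0.24, adjusted p = 0.0188 with 12 libraries, and 0.39 ± 0.091, adjusted p = 0.0028 without control 1), with adjusted p = 0.0544 when NaHCO3 1 was left out of the 12. In a fit of only low-bicarbonate medium and control, the adjusted p of Bub1 was 0.0798. Ttk, the Mps1 kinase, rose by 0.47 without control 1, and Mad2l1, which binds Cdc20 and holds it inactive, was not called (0.45 and 0.17).

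All 3 anaphase genes rose. Cdc20 (ENSMUSG00000006398), the activator of the anaphase-promoting complex, was 139, 299.7 and 273 TPM in controls 1 to 3, 222, 247 and 204 TPM under 15% CO2, 220.1, 224 and 165 TPM with lactic acid and 422, 438 and 362 TPM in low-bicarbonate medium. Low-bicarbonate libraries were the 3 highest and lactic acid 3 the lowest apart from control 1. Cdc20 rose (log2 change 0.85 ± 0.24, adjusted p = 0.0128 with 12 libraries, and 0.50 ± 0.14, adjusted p = 0.00773 without control 1). In a fit of only low-bicarbonate medium and control, its adjusted p was 0.0548. When control 3 was left out beside control 1, its adjusted p was 0.0681. Ube2c, the conjugating enzyme of the complex, rose by 0.53 and Espl1, separase, by 0.43 without control 1.

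Spindle genes rose in 6 of 7 cases. Tpx2 (ENSMUSG00000027469), which activates Aurora A on spindle fibres, was 148, 274 and 281 TPM in controls 1 to 3, 274, 253 and 303 TPM under 15% CO2, 284, 280.4 and 323 TPM with lactic acid and 478, 479.6 and 492 TPM in low-bicarbonate medium. The low-bicarbonate libraries lay close together and far above the rest, and Tpx2 rose (log2 change 1.10 ± 0.20, adjusted p = 0.000929 with 12 libraries, and 0.80 ± 0.089, adjusted p = 1.59e-05 without control 1). Nusap1 rose by 0.75, Kif4 by 0.36, Kif11, the motor that pushes spindle poles apart, by 0.28, Hmmr by 0.57 and Aspm, a pole protein, by 0.29 without control 1. Kif2c, which frees wrongly attached fibres, was not called (0.31 and −0.0054). Exons of Kif4 overlap Pdzd11 on the opposite strand, a gene with up to 142 TPM. Such overlaps also join Ccna2 to Exosc9, Nusap1 to Oip5, Cdca8 to 9930104L06Rik and Cdc20 to Elovl1, so reads of these genes are uncertain to the extent that strand was ignored.

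**Figure D3:**
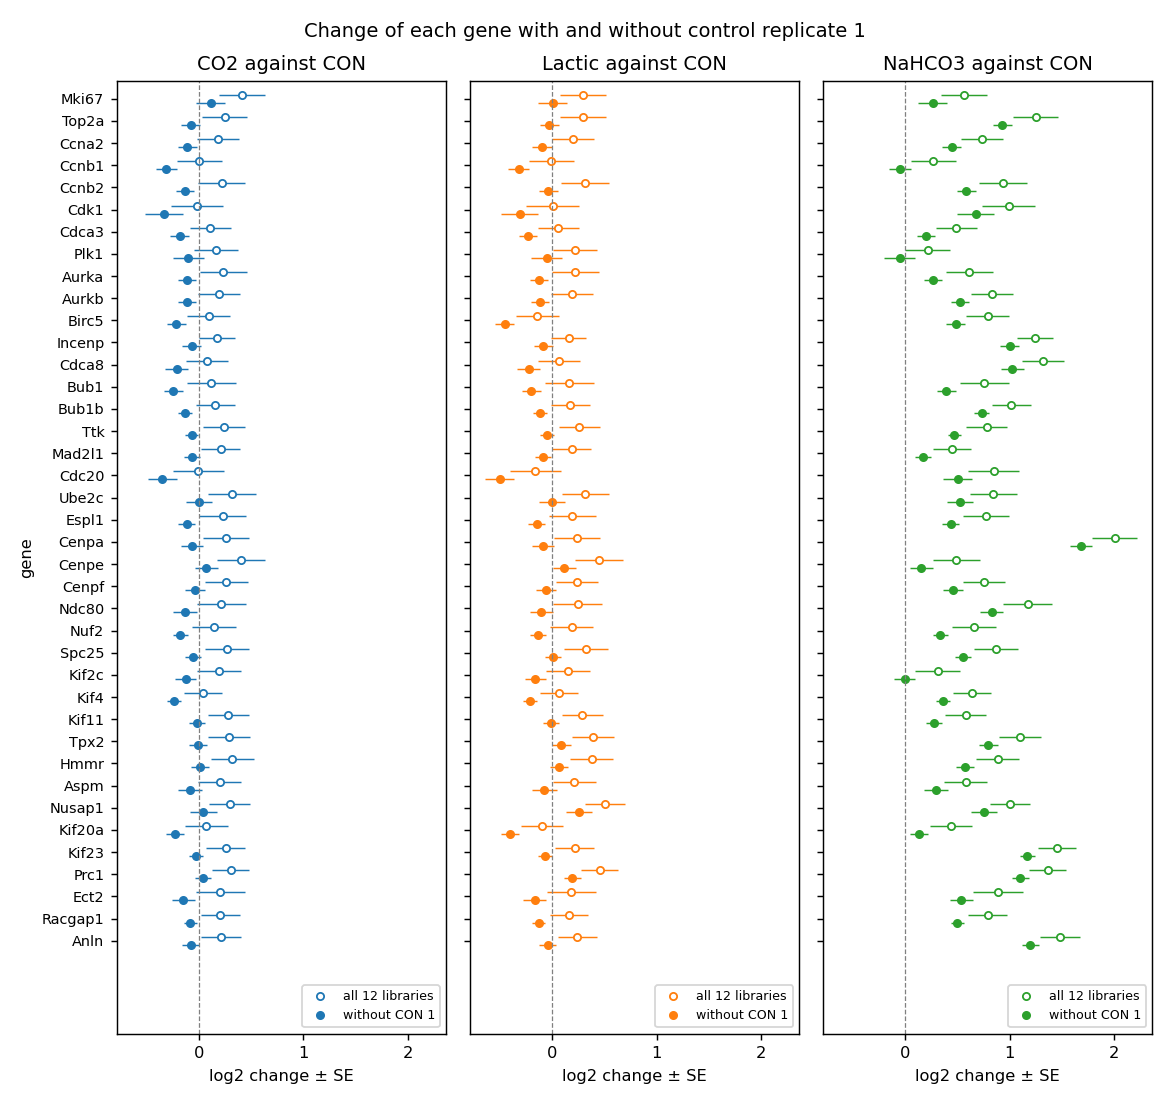
Log2 change of each of the 39 genes against control (CON) for the CO2, lactic acid and low-bicarbonate (NaHCO3) groups, from all 12 libraries (open points) and without control 1 (filled points), with bars for the standard error. Without control 1, 36 estimates in low-bicarbonate medium lie above 0, while 34 under CO2 and 32 with lactic acid lie below it.

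The comparisons between treatments use no control library. Set against low-bicarbonate medium, 24 of the 39 genes were lower under CO2, where 18.1% of all genes tested were lower, and none was higher, where 34.6% were. With lactic acid 23 were lower, beside 18.3% of all genes, and none higher, beside 31.7%. Control 1 still entered the shared estimate of the spread, and without it 35 genes were lower in each comparison, beside 24.2% and 24.8% of all genes, and none was higher, beside 45.8% and 43.3%. The median log2 difference was −0.60 for CO2 and −0.57 for lactic acid, against 0.20 and 0.16 over all genes. Cenpa differed by −1.75 ± 0.092 (adjusted p = 7.08e-08) and −1.77 ± 0.092 (adjusted p = 8.2e-08), and Anln by −1.28 and −1.24, without control 1. All 3 low-bicarbonate libraries were above all 6 CO2 and lactic acid libraries for 35 genes, and for 23% of the genes tested, with Mki67, Plk1, Cenpe and Kif2c the exceptions. With control 1 kept, the 24 became 15 without CO2 1, CO2 3 or NaHCO3 1 and 14 without NaHCO3 2, beside 13.5% to 14.6% of all genes. The 23 became 15 without lactic acid 2, 13 without lactic acid 3, and 14 without NaHCO3 1 or NaHCO3 2, beside 13.8% to 16.3%.

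Under 15% CO2 none of the 39 genes passed against control, in either fit. Over all genes 1.41% were called with 12 libraries and 7.62% without control 1. At an unadjusted p under 0.05 the number of the 39 was 0 and 7, where 15.8% and 26.2% of all genes were. The median log2 change turned with control 1, from 0.21 with it to −0.10 without it, beside 0.012 and 0.032 over all genes. Without control 1, the 95% intervals of the 39 changes lay between −0.73 and 0.42, and the estimate was below 0 for 34 genes. All 3 CO2 libraries were below controls 2 and 3 for 21 genes, and for 19.5% of the genes tested, and above them for none, where 30.9% of the genes tested were. The lowest adjusted p was 0.0534, for Kif4 (−0.24 ± 0.067). Leaving out lactic acid 3 as well as control 1 gave 6 calls, counted in either direction. Of all genes 16.7% were called in that fit, where 10.1% rose and 6.59% fell. Leaving out NaHCO3 2 or NaHCO3 3 gave 1 each, beside 8.06% and 8.77% of all genes.

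With lactic acid none of the 39 genes passed with 12 libraries, where 4.40% of all genes were called. At an unadjusted p under 0.05 there were 2 of the 39 and 23.5% of all genes. Without control 1, 16.6% of all genes were called and 7.34% fell, and of the 39 Birc5, Kif20a and Cdc20 fell, 3 or 7.69%, a share near that of all genes, and none rose. Birc5 was 58.5, 115 and 109 TPM in controls 1 to 3, 98.9, 102 and 89.0 TPM under 15% CO2, 90.7, 81.7 and 73.4 TPM with lactic acid and 156, 155 and 159.8 TPM in low-bicarbonate medium. Its 3 lactic acid libraries were below controls 2 and 3, and lactic acid 1 was above CO2 3. The log2 change was −0.45 ± 0.089 (adjusted p = 0.0086) for Birc5, −0.40 ± 0.086 (adjusted p = 0.0119) for Kif20a and −0.50 ± 0.14 (adjusted p = 0.0315) for Cdc20. Leaving out control 2 or control 3 beside control 1, so that 1 control assumed to vary like the other groups remained, left none called. Without control 1 and CO2 1 the number was 2, and without control 1 and CO2 2 it was 5, beside 5.27% and 8.16% of all genes that fell. The median log2 change was 0.21 with control 1 and −0.088 without it, beside −0.033 and −0.0018 over all genes, and the intervals without control 1 lay between −0.81 and 0.54. All 3 lactic acid libraries were below controls 2 and 3 for 21 genes, and for 28.3% of the genes tested. They were above them for Cenpe, Nusap1 and Prc1, and for 28.2% of the genes tested.

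Between CO2 and lactic acid none of the 39 genes passed in either fit, beside 0.333% of all genes with 12 libraries and 4.80% without control 1, and 0 and 2 had an unadjusted p under 0.05, where 8.49% and 20.2% of all genes did. The median difference was −0.011 on the log2 scale, and the 95% intervals lay between −0.64 and 0.69 with 12 libraries and between −0.47 and 0.42 without control 1. The CO2 and lactic acid comparisons with control share their control libraries.

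The third lactic acid library spread the group. It was the lowest of its group for 23 genes and the highest for 14. Its ratio to the mean of lactic acid 1 and 2 ran from 0.620 for Cdk1 to 1.334 for Mki67, with Plk1 at 1.321 and Cdc20 at 0.745. CO2 3 ran from 0.815, for Cdk1, to 1.226, for Plk1, and NaHCO3 3 from 0.744, for Aspm, to 1.027, for Tpx2. The median coefficient of variation was 7.90% with lactic acid (up to 25.1%), 6.99% under CO2 and 5.52% in low-bicarbonate medium.

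More of the other mitosis genes rose than fell in low-bicarbonate medium. Of 123 tested, 79 rose and 7 fell with 12 libraries, 64.2% and 5.69%, and 74 and 13 without control 1, 60.2% and 10.6%. The shares of all genes given above, 20.5% and 35.8%, then 23.1% and 41.5%, stand beside these and the list counts that follow. The median log2 change was 0.54 and 0.35. Among kinetochore and centromere genes 20 of 36 rose and 2 fell (20 and 5 without control 1). Hjurp, the chaperone that loads the Cenpa protein, stood at 74.1, 118 and 114 TPM in controls 1 to 3, 123, 137 and 119 TPM under 15% CO2, 132, 131 and 108 TPM with lactic acid and 471, 467 and 409 TPM in low-bicarbonate medium. Its low-bicarbonate libraries were the highest by far, and it rose (log2 change 2.15 ± 0.16, adjusted p = 2.64e-06 with 12 libraries, and 1.94 ± 0.10, adjusted p = 1.06e-07 without control 1). Mad1l1, the checkpoint partner of Mad2l1, fell by 1.73 on the log2 scale with 12 libraries and by 1.91 without control 1 (adjusted p = 7.93e-06 and 2.81e-07), from 31.2 TPM in controls 2 and 3 to 7.59 ± 0.927 TPM (SD, n = 3).

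Spindle and cytokinesis genes outside the 39 rose in 23 of 28 cases and fell in 2 (24 and 1 without control 1), among them Iqgap3 (1.80 without control 1) and Ckap2 (1.95 and 1.67). The septin Sept9 fell (−0.62 and −0.86). Genes of mitotic entry rose in 12 of 16 cases and fell in none (10 and 1 without control 1), led by Mastl, the Greatwall kinase that restrains the phosphatase opposing Cdk1 (1.82 and 1.54), Bora, which activates Aurora A toward Plk1 (1.46 and 1.21), and Cdc25c (1.43 and 1.12). Condensin and cohesin genes rose in 11 of 17 cases and fell in 2 (10 and 2), with Cdca5, sororin, at 1.54 and 1.23. Those that fell were the cohesin subunit Stag1 (−0.42 and −0.53) and Pds5b (−0.37 and −0.30), neither called under median-of-ratios scaling of the 12 libraries, nor Pds5b under that scaling without control 1. Genes of the anaphase-promoting complex and its cofactors rose in 9 of 16 cases and fell in none (6 and 1), Anapc7 most (0.72 and 0.64).

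The regulators split. Of 10 tested, 4 rose and 1 fell (4 and 3 without control 1). Foxm1, the activator of late cell cycle genes, was 60.5, 114 and 116 TPM in controls 1 to 3, 118, 102 and 125 TPM under 15% CO2, 97.1, 97.0 and 111 TPM with lactic acid and 166, 161 and 153 TPM in low-bicarbonate medium. Its low-bicarbonate libraries were above all others, and it rose (log2 change 0.78 ± 0.21, adjusted p = 0.00794 with 12 libraries, and 0.47 ± 0.092, adjusted p = 0.000947 without control 1). Lin52 of the MuvB core (1.19 and 1.28) and E2f7, a repressor of E2F targets (1.32 and 1.08), rose, as did Lin37 of the same core (0.51 and 0.55), while E2f4 of the DREAM complex fell (−0.53 and −0.68, the first not called under median-of-ratios scaling). Mybl2, B-Myb, was 18.6, 36.1 and 36.3 TPM in controls 1 to 3, 27.9, 27.8 and 28.1 TPM under 15% CO2, 25.9, 26.5 and 22.6 TPM with lactic acid and 30.9, 29.8 and 28.6 TPM in low-bicarbonate medium. Controls 2 and 3 were the highest libraries, and the log2 change was 0.032 (adjusted p = 0.903) with 12 libraries and −0.28 (adjusted p = 0.00964) without control 1. Without control 1 Mybl2 also fell under CO2 (−0.36, adjusted p = 0.0204) and with lactic acid (−0.52, adjusted p = 0.00263).

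S phase and G1 genes were counted in the same way. Of 30 S phase genes 6 rose and 2 fell with 12 libraries, and 6 rose and 11 fell without control 1, with a median log2 change of 0.18 and −0.044. These are 20.0% and 6.67%, then 20.0% and 36.7%, beside 20.5% and 35.8%, then 23.1% and 41.5%, of all genes, so the shares that rose, and that fell without control 1, are near those of all genes. Dtl, which targets licensing factors for destruction (1.20 and 0.91), and Cdt1, a licensing factor (1.17 and 0.79), rose. Tyms, thymidylate synthase (−1.15 and −1.45), and Gins1 of the replicative helicase (−1.03 and −1.33) fell. Of 14 CDK inhibitors and G1 genes, Cdkn2c rose with 12 libraries (0.52, adjusted p = 0.0472) and not without control 1 (0.26, adjusted p = 0.122), and 4 fell (6 without control 1). These falls are 28.6% and 42.9% of the list, beside 35.8% and 41.5% of all genes, so the shares are below or near those of all genes. Both cyclin E genes fell, Ccne1 by 1.03 and Ccne2 by 1.14 on the log2 scale without control 1, and with them Ccnd2 (−0.46) and Cdk4 (−0.70), which with 12 libraries passed narrowly (−0.44, adjusted p = 0.0466) and lost its call when any 1 library other than control 1 was left out. Cdkn1a, the p53 target p21, was not called (−0.22 and −0.11).

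Under CO2 none of the 123 other mitosis genes passed with 12 libraries. Without control 1, Rbl2, the pocket protein of the DREAM complex, rose (0.43, adjusted p = 0.0159) and 7 fell, beside 5.99% and 1.63% of all genes, among them Fbxo5, an inhibitor of the anaphase-promoting complex (−0.33), and Mybl2. Rbl2 stood at 22.3, 13.5 and 12.9 TPM in controls 1 to 3 and 18.2, 17.8 and 18.5 TPM under 15% CO2. It was 18.7, 19.1 and 20.1 TPM with lactic acid and 13.3, 14.9 and 12.4 TPM in low-bicarbonate medium, so control 1 was the highest library. Ccnd3, a D-type cyclin, stood at 13.7, 17.5 and 16.9 TPM in controls 1 to 3, 26.5, 22.8 and 24.5 TPM under 15% CO2, 17.6, 16.8 and 19.4 TPM with lactic acid and 16.5, 17.7 and 15.4 TPM in low-bicarbonate medium. The 3 CO2 libraries were the highest, and Ccnd3 rose under CO2 (log2 change 0.59 ± 0.11, adjusted p = 0.0273 with 12 libraries, and 0.49 ± 0.094, adjusted p = 0.0122 without control 1). With 12 libraries the call was lost when control 2, CO2 1, 2 or 3, lactic acid 1 or 2, or NaHCO3 1 was left out (adjusted p from 0.0513 to 0.147). It was also lost in a fit of only CO2 and control (0.257), under both other scalings and with a replicate block. Without control 1 it was lost when control 2, control 3 or CO2 1 was left out as well (0.124, 0.0985 and 0.0514). With lactic acid none of the 123 passed with 12 libraries, and without control 1 Rbl2 (0.52, adjusted p = 0.0044) and Mastl (0.32) rose and 12 fell, as did 11 of the 30 S phase genes, beside 9.31% of all genes that rose and 7.34% that fell. The calls without control 1 rest on 2 controls. Rbl2, Lin37, Fbxo5 and Ccnd2 were chosen after their values were seen.

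**Figure D4:**
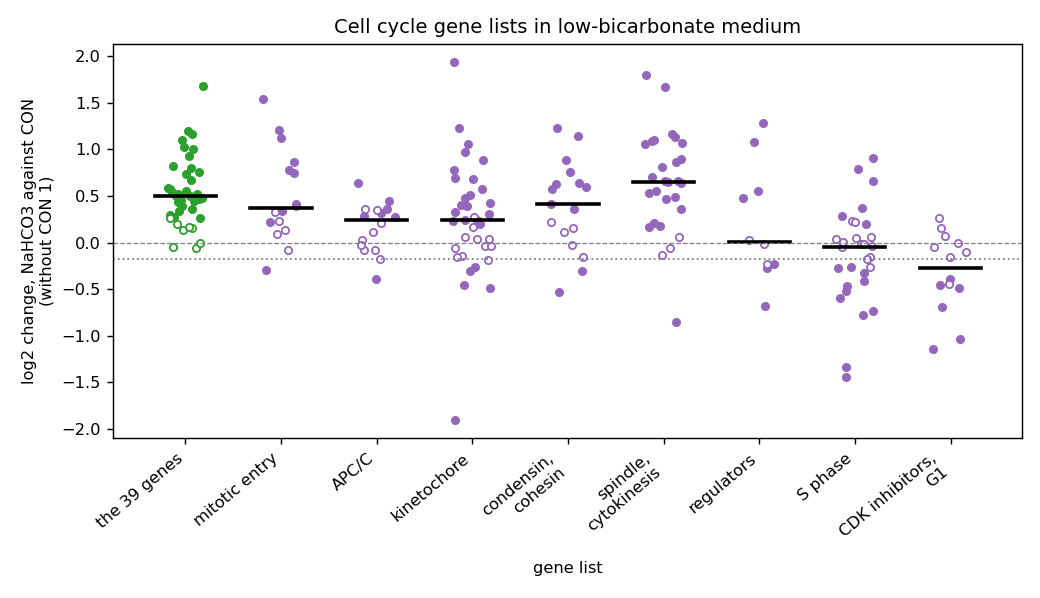
Log2 changes in low-bicarbonate medium against control for the genes of each cell cycle list, from the fit without control 1 (filled points, genes past the threshold; open points, the others; bars, list medians; dotted line, the median of all genes tested). The 39 genes have a median of 0.50, the S phase list −0.044 and the list of CDK inhibitors and G1 genes −0.27.

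The promoter elements were set beside the changes as a description. The 28 genes with a CHR ran from −0.054 for Plk1 to 1.68 for Cenpa in low-bicarbonate medium without control 1, with a median of 0.51. The 6 genes with a promoter but no CHR ran from −0.049 to 0.75, with a median of 0.25. For the CCAAT box the medians were 0.50 in the 27 genes with one and 0.48 in the 7 without, and with 12 libraries 0.79 and 0.79. Plk1, Mki67 and Cdk1, whose promoters are printed above, all hold both elements, and their changes were −0.054, 0.27 and 0.67.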

How the data were processed

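Libraries were prepared from Trizol RNA with a NEBNext Ultra II kit, per the labels. The authors deposited a table of TPM for 21959 Ensembl genes in 12 libraries. The submitters' processing notes name fastp 0.22.0, HISAT2 2.1.0 and the build GRCm39. What counted the reads, with which annotation and strand setting, is not given in the sources used here. Columns add up to 1000000, so values are shares, the depth is unknown and no counting intervals could be given. Descriptions of replicates 2 and 3 write CO3 and CO4 for CO2, which was read as a copying error.

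Symbols came from GENCODE M21 (21851 IDs matched, 108 did not), and of 26 repeated symbols the ID with the highest mean TPM was kept. On log2(TPM + 1), which understates changes of low genes, limma 3.58.1 in R 4.3.3 (group means, eBayes with a trend, two-sided) was fitted to genes with at least 1 TPM in all libraries of a group, 11996 genes with 12 libraries and 12023 without control 1, and p-values were adjusted by Benjamini-Hochberg over all genes in each contrast and called at 0.05. The script was tested on simulated data with the same spread in all 12 libraries, so that test does not cover an outlying library such as control 1. Sequence shared between genes was found with blastn 2.17.0. Of 11 regulators, Lin54 was not analysed here, and of 15 CDK inhibitor and G1 genes 14 were tested.

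The 39 genes and the other lists were chosen with earlier results of these data known. Named with values were, for each role, the gene with the largest change in low-bicarbonate medium and the one with the highest mean TPM, a panel of Mki67, Cdk1, Ccnb1, Plk1, Aurkb and Cdc20, genes called under CO2 or lactic acid, and up to 3 genes a direction in the other lists. Alternatives were another pseudocount, filter, scaling and fit, a replicate block and leaving out libraries. Those that combine the omission of control 1 with another change were added after seeing the data.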

Additional observations from a re-analysis of the deposited data

Results flagged for a closer look

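The effect of low-bicarbonate medium differed from that of the other conditions in a test of the difference itself. By limma with all 12 libraries, 24 of the 39 genes were lower under 15% CO2 than in low-bicarbonate medium, and 23 were lower with lactic acid (35 and 35 without control 1). Over all genes tested, 18.1% were lower under CO2 and 18.3% with lactic acid (24.2% and 24.8% without control 1). The 3 low-bicarbonate libraries were above all 6 libraries of the other conditions for 35 genes, and for 23% of the genes tested. Groups of 3 libraries were not tested for single outlying values.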

How the results depend on the processing

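In low-bicarbonate medium against control, every alternative run kept the number of genes that rose within 1.5 times of 32, from 22 (fit of only those groups) to 36. The share of all genes that rose ran from 12.5% (no filter) to 33.9% (median-of-ratios scaling without control 1). It was 17.7% in the fit of only those groups. None of the 39 genes fell in that comparison under any alternative run. The rest moved more. Median-of-ratios scaling gave medians of −0.053 for CO2 against lactic acid, −0.83 for CO2 and −0.76 for lactic acid against low-bicarbonate medium. Quantile normalization gave −0.49 and −0.45, with 15 and 13 genes called, beside 22.0% and 20.9% of all genes that were lower. A fit of only lactic acid and low-bicarbonate medium called 35, beside 23.9% of all genes that were lower. With libraries left out, in some runs with another scaling too, the calls ran from 0 to 7 (CO2 against control, median −0.14 to 0.36), 0 to 5 (lactic acid against control, median −0.10 to 0.36), 0 to 1 (CO2 against lactic acid, median −0.056 to 0.005), 14 to 38 (CO2 against low-bicarbonate medium, median −0.82 to −0.49) and 13 to 37 (lactic acid against low-bicarbonate medium, median −0.75 to −0.45). Over the same runs the share of all genes called against control ran from 0.249% to 16.7% (CO2) and 0.89% to 22.7% (lactic acid). Between CO2 and lactic acid it ran from 0.0499% to 7.69%. The share of all genes lower than in low-bicarbonate medium ran from 13.5% to 37.1% (CO2) and 13.8% to 36.4% (lactic acid). The medians of CO2 and lactic acid against control turned down whenever control 1 was left out, to −0.10 and −0.090 with a pseudocount of 0.1, −0.14 and −0.080 under median-of-ratios scaling, −0.049 and −0.034 under quantile normalization, −0.090 and −0.087 with a replicate block, and as low as −0.13 when CO2 3 was left out too. The calls then were 0, 7, 0 and 1 for CO2 (6 when lactic acid 3 was left out too) and 3, 5, 4 and 4 for lactic acid. Of all genes, 6.89%, 11.3%, 9.61% and 7.37% were called for CO2 (16.7% when lactic acid 3 was left out too). For lactic acid the shares were 15.9%, 22.7%, 22.7% and 19.3%. The median of CO2 against lactic acid was −0.054 under median-of-ratios scaling. Without control 1, the 3 lactic acid calls reached −0.58 for Cdc20 without lactic acid 2 and −0.53 for Birc5 without lactic acid 1. Changes with lactic acid turned up without control 2 for Cdc20 (0.046), Birc5 (0.028) and Kif20a (0.080) and without control 3 for Kif20a (0.035), with control 1 kept. Sept7 in low-bicarbonate medium turned up under median-of-ratios scaling (0.019, and 0.058 without control 1). The cause was not tested. The main fits did not pair same-numbered libraries. Of 18 correlations between their deviations, 3 were over 0.1. These were 0.49 between CO2 3 and lactic acid 3, 0.351 between CO2 2 and lactic acid 2, and 0.139 between control 2 and lactic acid 2. Between CO2 1 and lactic acid 1 the value was −0.03. With a replicate block the calls were 0, 0 and 33 against control, 0 between CO2 and lactic acid, and 24 and 20 against low-bicarbonate medium. Depth is unknown, so no limit from counting can be set.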
